A study of Mus musculus with 2 samples.

Results

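The genes described here are 9: the secreted CCN proteins Ccn1, Ccn2, Ccn3 and Ccn5, and the genes Ankrd1, Amotl2, Yap1, Tead1 and Lats2 of the YAP pathway. They were taken by gene symbol from the 34285 genes of the count tables, and each symbol matched 1 row. Mandibular first molars with surrounding tissue of C57BL/6J mice were dissociated at PN15.5 and profiled by droplet single-cell RNA sequencing. Injections into the peritoneum were given from PN3.5 on, again at PN6.5 and PN9.5, and last at PN12.5. They held clodronate liposomes at 40 μg/g (Lipo-Clo), which deplete macrophages and other phagocytes, or an equal volume of vehicle liposomes (Lipo-PBS). Both groups were of 1 genotype and carried the same batch label. Each group is 1 library, and the number of mice pooled in a library is not given in the sources used here. No test between the groups was therefore possible, there is no replicate check, and every interval below is at the 95% level and covers counting error only.

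YAP (Yap1) is a transcriptional coactivator that is held in the cytoplasm when the Hippo kinases, among them Lats2, phosphorylate it. In the nucleus it binds TEAD factors such as Tead1 and raises transcription of genes that include Ccn1 (CYR61), Ccn2 (CTGF), Ankrd1, Amotl2 and Lats2, and the products of Amotl2 and Lats2 act back on the pathway as inhibitors. Stiff matrix, cell stretching and actin tension favour nuclear YAP, and TGF-β is a separate inducer of Ccn2. Ccn1 and Ccn2 are matricellular proteins that bind integrins and proteoglycans, and both respond within minutes to serum, stretch and tissue dissociation. Ccn3 (NOV) and Ccn5 (WISP2) belong to the same family and often oppose Ccn2, and Ccn5 lacks the C-terminal domain of the others.

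Promoter sequence was at hand for 5 of the 9 genes, and it is shown for the 4 that are known YAP targets, because TEAD factors recognise the motif GGAATG. Each RefSeq window on GRCm38.p6 runs from 250 bases before the transcript start to 50 bases after it, 5′ to 3′ along the gene, and the capitals mark GGAATG or, where it is on the opposite strand, its reverse complement.
Ccn1 (chr3:145649936-145650235, minus strand): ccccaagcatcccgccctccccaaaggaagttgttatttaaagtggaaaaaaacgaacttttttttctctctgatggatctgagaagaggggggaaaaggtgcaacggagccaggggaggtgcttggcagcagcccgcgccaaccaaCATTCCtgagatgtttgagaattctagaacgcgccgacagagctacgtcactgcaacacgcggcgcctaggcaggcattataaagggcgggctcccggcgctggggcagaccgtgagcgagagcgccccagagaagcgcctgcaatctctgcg
Amotl2 (chr9:102717554-102717853, plus strand): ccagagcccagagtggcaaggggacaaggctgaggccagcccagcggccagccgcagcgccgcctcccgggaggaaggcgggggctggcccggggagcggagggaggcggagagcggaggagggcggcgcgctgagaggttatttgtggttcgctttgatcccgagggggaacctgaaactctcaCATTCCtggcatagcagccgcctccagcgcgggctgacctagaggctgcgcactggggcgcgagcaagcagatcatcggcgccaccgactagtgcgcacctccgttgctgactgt
Ankrd1 (chr19:36119795-36120094, minus strand): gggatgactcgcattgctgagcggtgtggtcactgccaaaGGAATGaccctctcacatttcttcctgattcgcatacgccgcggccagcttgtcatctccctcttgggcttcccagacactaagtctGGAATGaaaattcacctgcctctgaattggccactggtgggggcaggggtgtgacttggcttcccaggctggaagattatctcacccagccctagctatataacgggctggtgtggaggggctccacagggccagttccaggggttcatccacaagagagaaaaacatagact
Lats2 (chr14:57746074-57746373, minus strand): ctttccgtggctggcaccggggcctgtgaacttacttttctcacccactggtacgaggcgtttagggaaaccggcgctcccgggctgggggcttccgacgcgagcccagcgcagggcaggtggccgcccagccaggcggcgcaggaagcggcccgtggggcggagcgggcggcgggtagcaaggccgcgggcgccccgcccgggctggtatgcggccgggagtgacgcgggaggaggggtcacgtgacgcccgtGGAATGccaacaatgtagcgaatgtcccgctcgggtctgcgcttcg
In Ccn1 the motif lay on the opposite strand from position −103 relative to the start, and a TATAAA (13.6% of all windows) from −25. In Amotl2 it lay from −65, also on the opposite strand. Ankrd1 held 2 copies, from −210 and −123. In Lats2 it lay from position 4, and the window of a further RefSeq start of Lats2 had no copy. The Yap1 window, not shown, held 1 copy from −141. GGAATG occurs in 14.7% of all 32851 such windows. None of the windows of these 5 genes held, on either strand, the AP-1 motif TGANTCA (7.81% of all windows) or a CArG box (1.63%). A match is a string of letters and says nothing of binding in these cells. No promoter is shown for Ccn2, Ccn3, Ccn5 or Tead1.

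The Lipo-Clo library held 9362 cells with 31053404 counts of unique molecular identifiers (UMIs) and the Lipo-PBS library 9653 cells with 30537834, a median of 2666.5 and 2722 UMIs per cell. After filters on genes, mitochondrial UMIs and doublets, 8254 and 8261 cells remained, and 25 of their barcodes occurred in both libraries. Mitochondrial genes took 0.371% of the kept UMIs in Lipo-Clo and 1.74% in Lipo-PBS, and haemoglobin genes 5.47% and 7.89%. Clusters were named by markers, and a name means that the cells are like that class. Clusters with markers of several lineages stayed unnamed and out of the main comparisons, the largest of them with 9 Lipo-Clo and 774 Lipo-PBS cells and the others with 315 and 165, 120 and 149, 1 and 60, and 0 and 8. Dental mesenchyme, the largest class, held 4394 and 4122 cells with 15094491 and 13676835 UMIs. The macrophage-like cluster, the kind of cell that clodronate targets, held 127 and 167 cells, and the unnamed cluster of 120 and 149 cells carried macrophage as well as dendritic markers. Levels are given as UMIs per 1000000 UMIs of the class (CPM), and a gene's level is compared between cells, not with that of another gene.

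Across the cell classes, Ccn1 was highest in the mesenchyme, at 351 CPM over both libraries (344 to 358). Perivascular cells, glia and endothelium followed at 198, 198 and 197 CPM, with intervals that overlapped one another, then macrophages at 112 and epithelium at 89.5. The order for Ccn2 differed between the libraries. In Lipo-PBS mesenchyme had 144 CPM (138 to 151) and perivascular cells, the pericytes and smooth muscle around vessels, 125 CPM (106 to 145), with overlapping intervals, while in Lipo-Clo perivascular cells had 104 CPM (82.8 to 128) and mesenchyme 56.1 CPM (52.4 to 60.0). Endothelium had 65.3 CPM over both libraries and glia 38.0. Among whole classes, Ccn3 had its highest level in perivascular cells (44.1 CPM, 35.6 to 54.0), ahead of mesenchyme at 16.2 CPM and glia at 14.1 CPM, whose intervals overlapped. The mesenchymal value is a mean over states, and a fibroblast-like state described below had 107 CPM. Ccn5 was mesenchymal: 91.3% of its UMIs in named classes lay there, at 26.9 CPM against 11.4 CPM in perivascular cells.

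The pathway genes were spread differently from the CCN genes. Tead1 was highest in glia at 302 CPM (267 to 339), with endothelium and perivascular cells at 116 and 111 CPM and mesenchyme at 78.9 CPM. Of the glial cells 41.9% had a Tead1 UMI. Yap1 was highest in epithelium (59.2 CPM, 52.6 to 66.4), which was not separated from perivascular cells (56.9 CPM) or endothelium (49.6 CPM) by counting error, and mesenchyme had 43.1 CPM. Lats2 followed glia (66.2 CPM), endothelium (62.7 CPM) and perivascular cells (51.2 CPM), whose intervals overlapped, with mesenchyme at 33.5 CPM. Amotl2 was at 46.7 CPM in glia, 38.5 in mesenchyme and 35.9 in endothelium, with overlapping intervals.

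Ankrd1, a cardiac and muscle ankyrin-repeat protein and a textbook YAP target, was barely detected. It had 0 UMIs in Lipo-Clo mesenchyme, where a floor of 3 counts corresponds to 0.199 CPM, and 3 UMIs in 2 Lipo-PBS cells. Erythroid cells had 2 UMIs in each library, and no other named class had any. No ratio is given for it.

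Blood cells serve as a guide to signal from free RNA in droplets, but their classes differed in level. B cells, with a median of 885 and 947 UMIs per cell, had 12 and 11 Ccn1 UMIs (13.6 CPM in Lipo-Clo, 29.7 in Lipo-PBS) and 1 and 0 Ccn2 UMIs. Neutrophils had 44.7 and 87.1 CPM of Ccn1 and 7.08 and 29.6 CPM of Ccn2. In erythroid cells these were 41.8 and 47.5 CPM of Ccn1 and 5.30 and 14.6 CPM of Ccn2, the latter from 9 and 16 UMIs. The share of cells with a Ccn2 UMI, each cell thinned to 1000 UMIs, was 0.382% and 3.61% in neutrophils against 4.73% and 9.30% in mesenchyme, and without thinning 1.74% and 4.62% against 11.1% and 18.4%. Thinning kept 524 and 194 neutrophils, of a median of 2793.5 and 2060 UMIs, and 4013 and 3837 mesenchymal cells, of 2868.5 and 2960.5. The neutrophil level of Ccn2 was thus also lower in Lipo-Clo, but it rests on 16 and 18 UMIs, and on 2 and 7 of the thinned cells. In neutrophils 33.7% of all genes were at least 1.5-fold lower in Lipo-Clo, with a median log2 ratio of −0.30. The part of free RNA in the mesenchymal values was not tested.

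**Figure D1:**
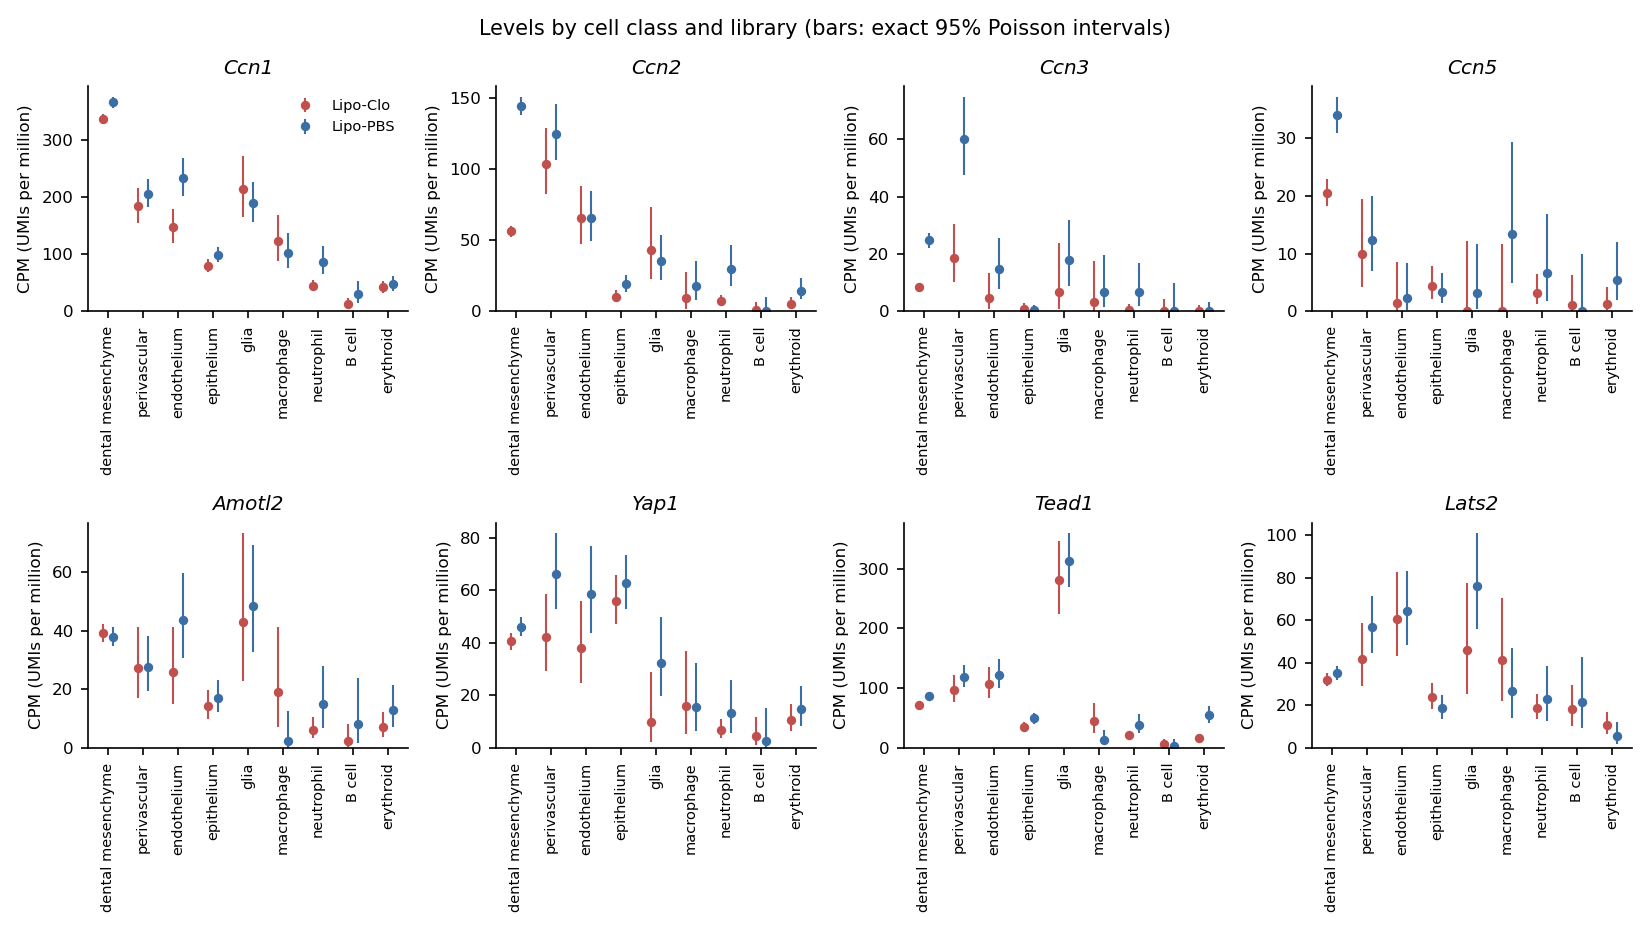
Level of each gene (CPM, vertical axis) in 9 cell classes, with 1 point per library (red Lipo-Clo, blue Lipo-PBS) and exact Poisson intervals as bars. Ccn2 in mesenchyme is 56.1 CPM in Lipo-Clo and 144 in Lipo-PBS, while Tead1 is highest in glia of both libraries and Ankrd1 is left out for lack of UMIs.

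In dental mesenchyme, Ccn2, Ccn3 and Ccn5 were lower in Lipo-Clo, and Ccn1 and the pathway genes differed little. Of 13275 genes with at least 50 UMIs over both libraries, 7.56% were at least 1.5-fold lower in Lipo-Clo and 4.17% at least 1.5-fold higher. Of the 9 genes 8 had enough UMIs, and 3 of these 8 were at least 1.5-fold lower and 0 higher. The interval of the log2 ratio lay below 0 for 6 of the 8, against 25.4% of all genes, and the median ratio of all genes was −0.02. An interval is narrower where a gene has more UMIs. Each of the 8 had at least 465 mesenchymal UMIs, while a gene needed only 50, so these shares of intervals are not like for like. A summed level does not tell fewer cells with a transcript from less transcript per cell, so counts per cell are given as well.

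Ccn2 had 847 UMIs in Lipo-Clo and 1973 in Lipo-PBS, which is 56.1 CPM (52.4 to 60.0) against 144 CPM (138 to 151). The log2 ratio was −1.36 (−1.48 to −1.25), and Ccn2 was 2.57-fold higher in Lipo-PBS. The difference lay both in how many cells had a UMI and in how many UMIs they had. Ccn2 was found in 11.1% of Lipo-Clo and 18.4% of Lipo-PBS cells, with a mean of 1.74 and 2.60 UMIs per such cell. Cells with 5 or more Ccn2 UMIs numbered 24 of 4394 (0.546%) and 108 of 4122 (2.62%). The highest cell had 20 UMIs in Lipo-Clo and 25 in Lipo-PBS, but 1 cell does not describe the upper end. The 1% of cells with most Ccn2, 43 and 41 cells, carried 31.9% of 847 and 28.8% of 1973 UMIs, so these cells too held fewer Ccn2 UMIs in Lipo-Clo.

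Ccn1 behaved otherwise. It had 5091 and 5014 UMIs, 337 CPM (328 to 347) in Lipo-Clo and 367 CPM (357 to 377) in Lipo-PBS. Its log2 ratio was −0.12 (−0.18 to −0.06), beyond counting error but far from 1.5-fold. Ccn1 was seen in 43.2% and 45.2% of cells with a mean of 2.68 and 2.69 UMIs per such cell, and 6.99% and 7.30% of cells had 5 or more. The intervals of the Ccn1 and Ccn2 ratios did not overlap.

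Ccn3 had 127 and 338 UMIs, 8.41 against 24.7 CPM, a log2 ratio of −1.55 (−1.86 to −1.26). It was found in 1.37% and 4.17% of cells, while the mean per such cell was 2.12 and 1.97 UMIs, so the libraries differed more in the share of cells with Ccn3 than in UMIs per such cell. The 1% of cells with most Ccn3 held 86.6% of its UMIs in Lipo-Clo, where 60 cells had any, and 54.4% in Lipo-PBS, where 172 had any. Ccn5 had 310 and 464 UMIs, 20.5 against 33.9 CPM, a log2 ratio of −0.72 (−0.94 to −0.51). Its cells made up 4.05% and 6.67%, with a mean of 1.74 and 1.69 UMIs. The other CCN genes were Ccn4 (WISP1), at 105 and 104 CPM with a log2 ratio of 0.01 (−0.09 to 0.11), and Ccn6, which had no UMI in mesenchyme.

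Among the pathway genes, Tead1 had the lowest ratio. It had 1078 and 1193 UMIs, 71.4 CPM against 87.2 CPM, a log2 ratio of −0.29 (−0.41 to −0.17). Yap1 had 612 and 628 UMIs, 40.5 against 45.9 CPM, at −0.18 (−0.34 to −0.02). The kinase gene Lats2 had 483 and 480 UMIs, 32.0 against 35.1 CPM, at −0.13 (−0.32 to 0.05). Amotl2, whose protein angiomotin-like 2 binds and retains YAP, had 591 and 518 UMIs, 39.2 against 37.9 CPM, at 0.05 (−0.12 to 0.22). All 4 stayed inside 1.5-fold, and the intervals of Lats2 and Amotl2 held 0. In neutrophils Tead1 was lower too, at 20.8 against 37.8 CPM (−0.86, −1.61 to −0.08). In erythroid cells it was 15.9 against 54.8 CPM (−1.78, −2.50 to −1.11). Of all genes, 33.7% in neutrophils and 21.4% in erythroid cells were at least 1.5-fold lower. B cells and macrophages went the other way, from too few Tead1 UMIs for use. B cells had 6 and 1 UMIs (6.82 against 2.70 CPM) and macrophages 14 and 6 (44.3 against 13.4 CPM). The part of free RNA in the mesenchymal Tead1 value was not tested. In the GENCODE M21 annotation Tead1 overlaps Gm44462, a microRNA gene, and Lats2 overlaps Gm49361, a protein-coding gene, on the same strand. The counts of Tead1 and Lats2 are uncertain to that extent, while the genes that overlap Ccn2 and Yap1 lie on the other strand.

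**Figure D2:**
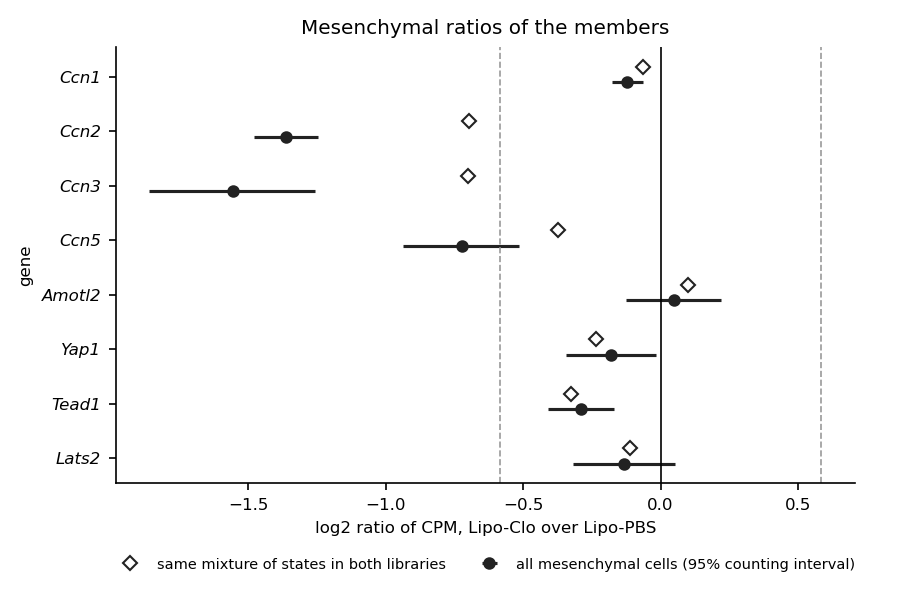
Log2 ratio of CPM in dental mesenchyme, Lipo-Clo over Lipo-PBS (horizontal axis), for the 8 genes with enough UMIs. Filled points are all mesenchymal cells with counting intervals, open diamonds give each mesenchymal state 1 common weight, and dashed lines mark 1.5-fold. Ccn2 moves from −1.36 to −0.70 and Ccn3 from −1.55 to −0.70, while Tead1 lies at −0.29 and −0.33.

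Markers of vascular cells in the mesenchyme went the same way as Ccn2. All 7 endothelial markers were lower in Lipo-Clo, with a summed level of 31.1 against 48.9 CPM and 0 of them at 0. Of the 7 perivascular markers 6 were lower, with a summed level of 289 against 356 CPM over all 7 and 0 of them at 0. The exception was Acta2, at 199 against 189 CPM, the largest part of both sums. Neutrophil and epithelial markers went the other way, at 0.0465% against 0.0105% and 0.0333% against 0.0225% of mesenchymal UMIs. Glial and macrophage markers were lower in Lipo-Clo as well (0.00303% against 0.00424% and 0.00192% against 0.00265%) and B cell markers higher (0.00603% against 0.00396%). Mitochondrial genes took 0.376% and 1.63% of mesenchymal UMIs, haemoglobin genes 2.47% and 5.40% and ribosomal protein genes 14.6% and 11.8%. The part of these in the ratios was not tested.

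The mesenchyme fell into 11 states, and the members were spread unevenly over them. A state with the fibroblast genes Mfap5, Clec3b and Col14a1 is called fibroblast-like and held 600 Lipo-Clo and 952 Lipo-PBS cells. A state led by Abi3bp, Mgp and Angptl1 matched more than 1 list and stayed unnamed, with 85 and 256 cells. The dental follicle-like state (Col18a1, C1qtnf3, Bmp3) held 710 and 648 cells, the periodontal ligament-like state (Pappa2, Tnn, Crispld2) 619 and 336, the osteoblast or cementoblast-like state (Ibsp, Bglap2) 662 and 547, and the odontoblast-like state (Dspp, Dmp1) 109 and 65. The periodontal ligament-like state met 3 markers of that list. The follicle-like and Abi3bp states met 4 each, so the name does not set it apart from them. Both pulp or papilla-like states, led by Lrrc4c and by Ctnnd2, held 475 and 239, and 384 and 193. An unnamed state led by Pcp4 and Mmp13 held 411 and 343 cells, dividing cells 153 and 49, and an unnamed state led by haemoglobin genes 186 and 494. The largest state was thus dental follicle-like in Lipo-Clo and fibroblast-like in Lipo-PBS.

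Ccn2 was concentrated in both the Abi3bp state and the fibroblast-like state, which held 22.8% and 38.5% of its mesenchymal UMIs. Its level over both libraries was 701 CPM (648 to 757) in the Abi3bp state and 281 CPM (265 to 299) in the fibroblast-like state. The haemoglobin-led, follicle-like and osteoblast-like states followed at 67.6, 57.9 and 55.9 CPM with overlapping intervals, and the Ctnnd2 state was lowest at 4.62 CPM. Ccn1 had another order, with the Abi3bp state at 672 CPM, the follicle-like state at 649 CPM, the periodontal ligament-like state at 528 CPM and the fibroblast-like state at 365 CPM. The libraries differed in the first of these: in Lipo-Clo the follicle-like state (666 CPM, 635 to 698) was above the Abi3bp state (510 CPM, 416 to 619), and in Lipo-PBS the Abi3bp state had 718 CPM and the follicle-like state 629 CPM, with overlapping intervals. It was lowest in the Lrrc4c and Ctnnd2 states, at 77.6 and 69.3 CPM. The periodontal ligament-like state, with rank 3 for Ccn1, had rank 7 for Ccn2 with 35.3 CPM.

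Ccn3 was nearly confined to 1 state, since 412 of its 465 UMIs (88.6%) lay in the fibroblast-like state at 107 CPM. Ccn5 was at 119 CPM in the Abi3bp state and 77.8 CPM in the follicle-like state, and 47.5% of its UMIs lay in the latter. Tead1 and Yap1 were highest in the Ctnnd2 state, at 162 and 77.4 CPM, where Ccn1 and Ccn2 were lowest. For Yap1 and Ccn1 the intervals of the Ctnnd2 state overlapped those of the Lrrc4c state, for Yap1 also that of the Abi3bp state, and for Ccn2 that of the odontoblast-like state. In Lipo-PBS alone its Tead1 interval (145 CPM, 107 to 192) overlapped that of the follicle-like state (124 CPM, 110 to 140). The Ctnnd2 state had the fewest UMIs per cell, a median of 1182 and 1435. By share of cells with a UMI, Tead1 was not highest there, at 20.8% against 29.2% of dividing cells. Tead1 was lowest in the odontoblast-like state at 25.7 CPM. Lats2 was highest in the follicle-like state at 56.2 CPM. Amotl2 lay between 43.6 and 56.4 CPM in 6 states, dividing, follicle-like and fibroblast-like cells among them, and was 19.1 CPM or lower in the osteoblast-like, Lrrc4c, odontoblast-like and Ctnnd2 states.

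**Figure D3:**
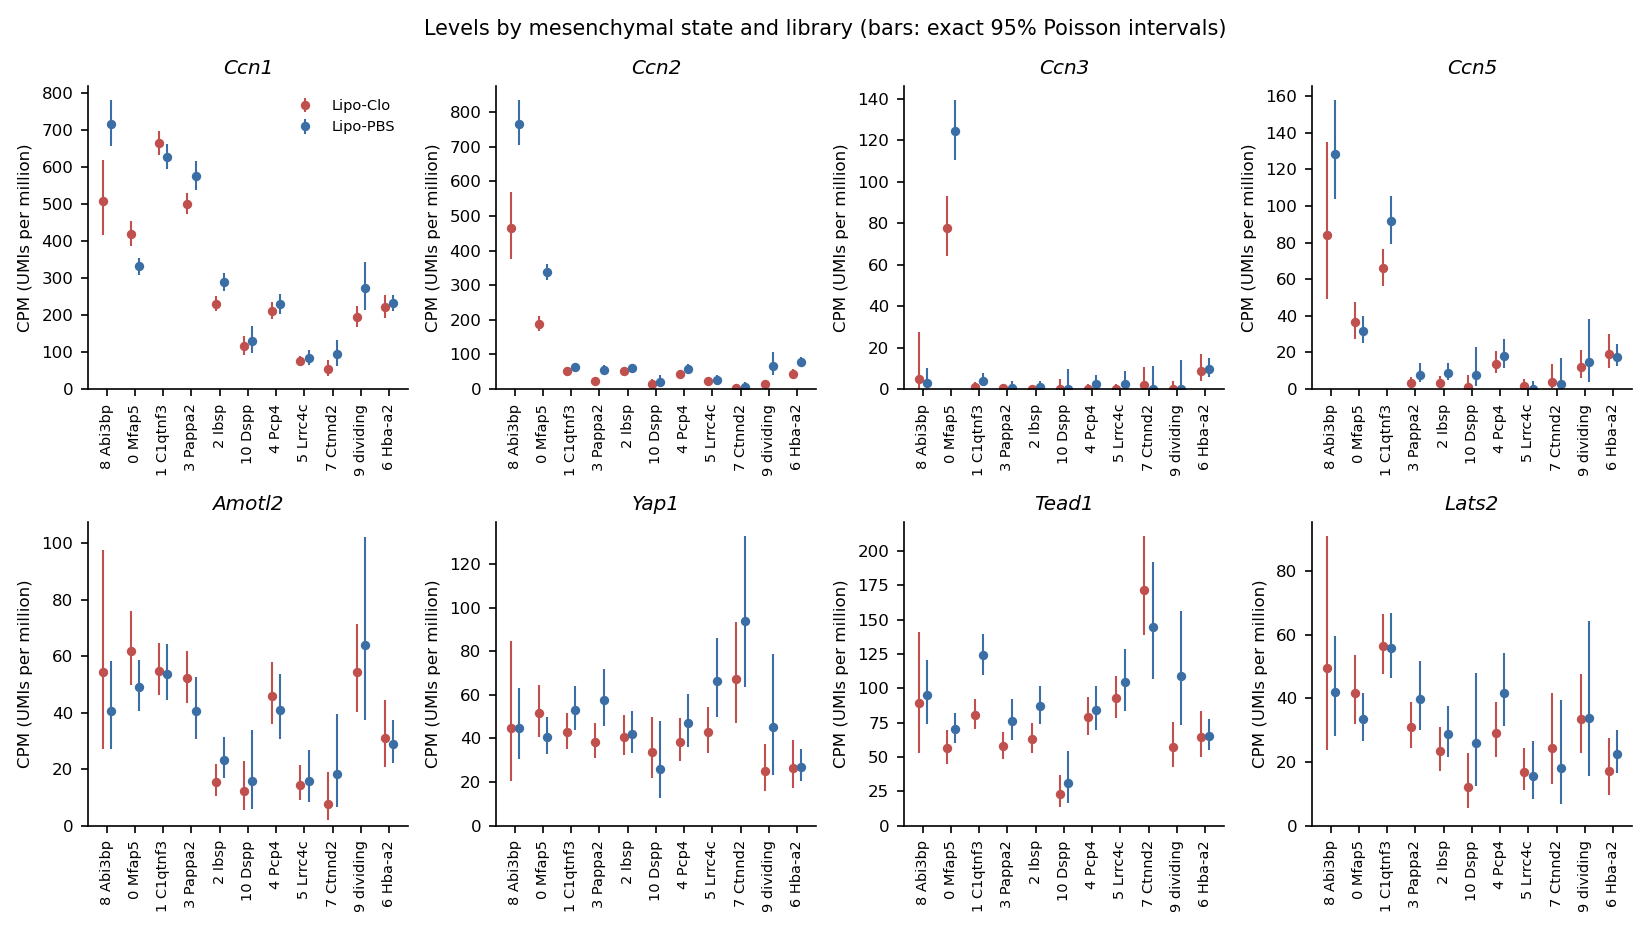
Level of each gene (CPM, vertical axis) in the 11 mesenchymal states, given by number and leading gene, with 1 point per library (red Lipo-Clo, blue Lipo-PBS) and exact Poisson intervals as bars. Ccn2 stands out in states 8 and 0 and Ccn3 in state 0, while Yap1 and Tead1 peak in state 7.

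Within states the Ccn2 difference was smaller than over the whole mesenchyme but kept its direction. In the fibroblast-like state Ccn2 had 275 and 812 UMIs, 189 against 337 CPM, a log2 ratio of −0.84 (−1.04 to −0.64). In the Abi3bp state it had 94 and 549 UMIs, 466 against 767 CPM, at −0.72 (−1.05 to −0.40). The periodontal ligament-like state had 59 and 78 UMIs, 23.8 against 55.5 CPM, at −1.22 (−1.73 to −0.71), beside neutrophil levels of 7.08 and 29.6 CPM. The haemoglobin-led state was at −0.85 (−1.38 to −0.35). Of the 8 states with 50 or more Ccn2 UMIs, 8 were lower in Lipo-Clo, 4 of them beyond counting error. The other 4, follicle-like, osteoblast-like, Pcp4 and Lrrc4c, lay between −0.39 and −0.16 with intervals that held 0. The Lrrc4c state, at 23.7 against 26.5 CPM, was below the Lipo-PBS neutrophil level. With each state weighted in both libraries by its mean share of UMIs, a common mixture of states, Ccn2 was 72.2 against 117 CPM, a log2 ratio of −0.70. Without the fibroblast-like and Abi3bp states it was also −0.70.

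Ccn1 went in different directions. In the fibroblast-like state it was higher in Lipo-Clo, 421 against 332 CPM from 613 and 799 UMIs, a log2 ratio of 0.34 (0.19 to 0.50). In the same cells Ccn2 was lower, as given above. Ccn1 was lower in 9 of 11 states, 5 of them beyond counting error, among them the Abi3bp state at −0.49 (−0.81 to −0.18), the osteoblast-like state at −0.32 (−0.51 to −0.14) and the periodontal ligament-like state at −0.20 (−0.33 to −0.07). At the common mixture its ratio was −0.06, as was the median of all genes. Ccn3 in the fibroblast-like state had 113 and 299 UMIs, 77.6 against 124 CPM, at −0.68 with an interval below 0, and at the common mixture −0.70. Ccn5 was lower in the follicle-like state, 65.9 against 91.7 CPM, at −0.48 (−0.78 to −0.17), and was 36.4 against 32.0 CPM in the fibroblast-like state, within counting error. At the common mixture it was −0.37, short of 1.5-fold.

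Tead1 was lower in 9 of 10 states with enough UMIs, 4 beyond counting error. The follicle-like state had 80.8 against 124 CPM, a log2 ratio of −0.62 (−0.89 to −0.35), and the osteoblast-like state −0.46 (−0.80 to −0.11). The remaining state, that of Ctnnd2, had 172 against 145 CPM with an interval that held 0. At the common mixture Tead1 was −0.33. Yap1 was lower in 7 of 8 states, 2 of them beyond counting error: the periodontal ligament-like state at −0.59 (−1.03 to −0.14) and the Lrrc4c state at −0.62 (−1.15 to −0.08). Amotl2 was higher in 5 of 7 states and Lats2 in 2 of 6, and each of their intervals held 0. In the fibroblast-like state, where Ccn1 was higher, Amotl2 (61.8 against 49.0 CPM, 0.33), Yap1 (51.5 against 40.7 CPM, 0.34) and Lats2 (41.9 against 33.6 CPM, 0.32) also had ratios above 0, within counting error, while Tead1 was 56.3 against 70.6 CPM, at −0.33 (−0.73 to 0.06).

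**Figure D4:**
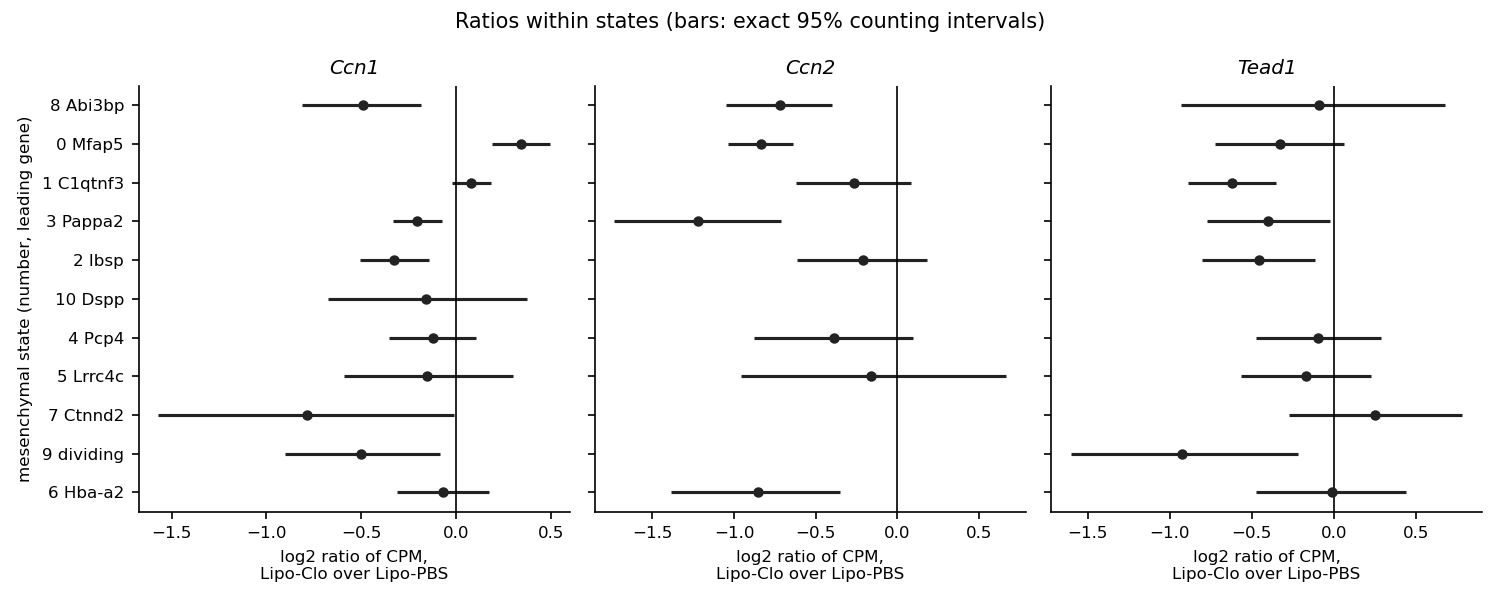
Log2 ratio of CPM, Lipo-Clo over Lipo-PBS (horizontal axis), of Ccn1, Ccn2 and Tead1 in each mesenchymal state with at least 50 UMIs of the gene, with counting intervals as bars. All 8 Ccn2 points lie below 0, and Ccn1 in state 0, the fibroblast-like state, lies above it at 0.34.

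Outside the mesenchyme, Ccn2 in vascular cells did not differ beyond counting error. In endothelium Ccn2 was at 65.2 and 65.3 CPM, a log2 ratio of 0.00 (−0.61 to 0.59), and in perivascular cells at 104 and 125 CPM, −0.26 (−0.66 to 0.12). Both intervals lie above that of the whole mesenchyme (−1.48 to −1.25), which is not at a common mixture of states. At the common mixture mesenchymal Ccn2 was at −0.70. The perivascular interval overlapped those of the fibroblast-like state (−1.04 to −0.64) and the Abi3bp state (−1.05 to −0.40), and the endothelial interval overlapped the latter. Ccn1 was lower in Lipo-Clo endothelium, 147 against 234 CPM from 97 and 204 UMIs, at −0.67 (−1.03 to −0.31), and was 184 and 206 CPM in perivascular cells (−0.16, −0.46 to 0.13). In endothelium 3 of 6 genes in use were at least 1.5-fold lower, against 10.3% of all genes, namely Ccn1, Amotl2 (−0.76) and Yap1 (−0.62), the last pair with intervals that held 0.

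Ccn3 in perivascular cells was 18.5 CPM in Lipo-Clo (15 UMIs) and 60.0 CPM in Lipo-PBS (78 UMIs), a log2 ratio of −1.70 (−2.60 to −0.89). Yap1 was 42.0 against 66.2 CPM there, −0.66 (−1.27 to −0.07). These were the 2 of 7 genes in use that were at least 1.5-fold lower in perivascular cells, against 7.36% of all genes. Perivascular cells had a median of 1510 and 1835 UMIs, with haemoglobin genes at 4.73% and 9.66% of them.

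Epithelium was a mixture of a cluster led by the enamel genes Odam, Ambn and Amtn, 592 and 334 cells, which held most Lipo-Clo epithelium, and a keratin cluster led by Lgals7 and Krt14, 224 and 377 cells, which held most of Lipo-PBS. Over both, 1 of 6 genes in use was at least 1.5-fold lower, against 11.4% of all genes. This was Ccn2, with 26 and 45 UMIs, 10.3 against 19.0 CPM, and a log2 ratio of −0.88 (−1.64 to −0.16). Neutrophils had 7.08 and 29.6 CPM of Ccn2, while B cells had 1 and 0 UMIs, with upper limits of 6.34 and 9.97 CPM. The part of free RNA in the epithelial levels was not tested. Each cluster alone had fewer than 50 Ccn2 UMIs. Ccn1 differed between the clusters, at 51.9 against 105 CPM in the Odam cluster, −1.02 (−1.46 to −0.58), and 129 against 96.0 CPM in the keratin cluster, 0.43 (0.06 to 0.79). The Odam cluster was near the neutrophil level of Ccn1, 44.7 against 87.1 CPM, and the part of free RNA in it was not tested. In glia, Tead1 was 280 and 312 CPM (−0.15, −0.54 to 0.22) and Ccn1 214 and 189 CPM, and Lats2 was 46.2 against 76.0 CPM (−0.72, −1.69 to 0.17) from 14 and 47 UMIs. In macrophages only Ccn1 had enough UMIs, 39 and 46, at 124 and 103 CPM (0.26, −0.39 to 0.91).

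The wider YAP target signature, 22 genes that include 5 of the 9, was lower in Lipo-Clo mesenchyme for 14 of 20 genes in use and higher for 6. Its median log2 ratio was −0.18, and −0.26 without the members, against −0.02 for all genes. At the common mixture of states its median was −0.10 and that of all genes −0.060. At least 1.5-fold lower were 3 of the 20, against 7.56% of all genes, and 0 were as much higher. The 3 were Ccn2, Ccdc80 (103 against 199 CPM, −0.94), a matrix protein, and Rbms3 (131 against 207 CPM, −0.66), an RNA-binding protein. The highest were Nt5e, the ecto-enzyme CD73, at 0.43 (0.19 to 0.68) and Foxf2, a forkhead factor, at 0.39 (0.25 to 0.53).

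The Hippo pathway genes, 36 listed and 34 in use, had a median of −0.13, against −0.02 for all genes, with 23 lower and 11 higher. Of the 34, 3 were at least 1.5-fold lower, a share near the 7.56% of all genes, and 0 were as much higher. These 3 were Frmd6, a FERM-domain protein upstream of the kinases, at 61.0 against 115 CPM (−0.92, −1.04 to −0.80), the phosphatase gene Ptpn21 at −0.70 (−1.09 to −0.31), and Fat4, an atypical cadherin, at 58.4 against 91.8 CPM (−0.65). Dchs1, the cadherin that binds Fat4, was higher at 101 against 80.6 CPM (0.33, 0.22 to 0.45). Of the 8 core kinases and adaptors 0 passed 1.5-fold. Stk3 (MST2) was at −0.38 and Lats1 at −0.30, Stk4 (MST1) at −0.10 and Nf2 (merlin) at 0.21. Wwtr1 encodes TAZ, the partner coactivator of YAP, and had 116 against 155 CPM (−0.41, −0.51 to −0.32). The TEAD cofactor Vgll3 was at −0.49, Tead2 at 0.26 (0.04 to 0.49), Tead3 at 0.19 and Ajuba, a LIM protein that inhibits LATS, at 0.25 (−0.15 to 0.65).

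Lists of TGF-β responsive genes, SRF and actin genes, and immediate early and dissociation genes were set beside these. Of 8 TGF-β responsive genes 6 were lower, with a median of −0.46, against −0.02 for all genes. At least 1.5-fold lower were 3 of the 8, against 7.56% of all genes, among them Ldlrad4 at −0.86 (−0.99 to −0.73) and Ltbp2 at −0.66 (−0.99 to −0.35). Smad7 was at 0.14 and Tgif1 at 0.04, both with intervals that held 0. The 15 SRF and actin genes had a median of 0.06, with Filip1l at −0.98 and vinculin (Vcl) at −0.50, and Actb at 0.47 and filamin A (Flna) at 0.17. Of 22 immediate early and dissociation genes 19 were lower and 3 higher, with a median of −0.22. Only 1 of the 22 was at least 1.5-fold lower, against 7.56% of all genes, namely Atf3, at 102 against 183 CPM (−0.85, −0.94 to −0.76). Klf6 followed at −0.50, and the heat shock genes Dnajb1 and Hspa1b were at 0.34 and 0.18. Reads of Hspa1b may be shared with its close copy Hspa1a. Fos was at 1297 and 1675 CPM, and Jun at 899 and 1211 CPM. The part of tissue dissociation in the Ccn1 and Ccn2 values was not tested.

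**Figure D5:**
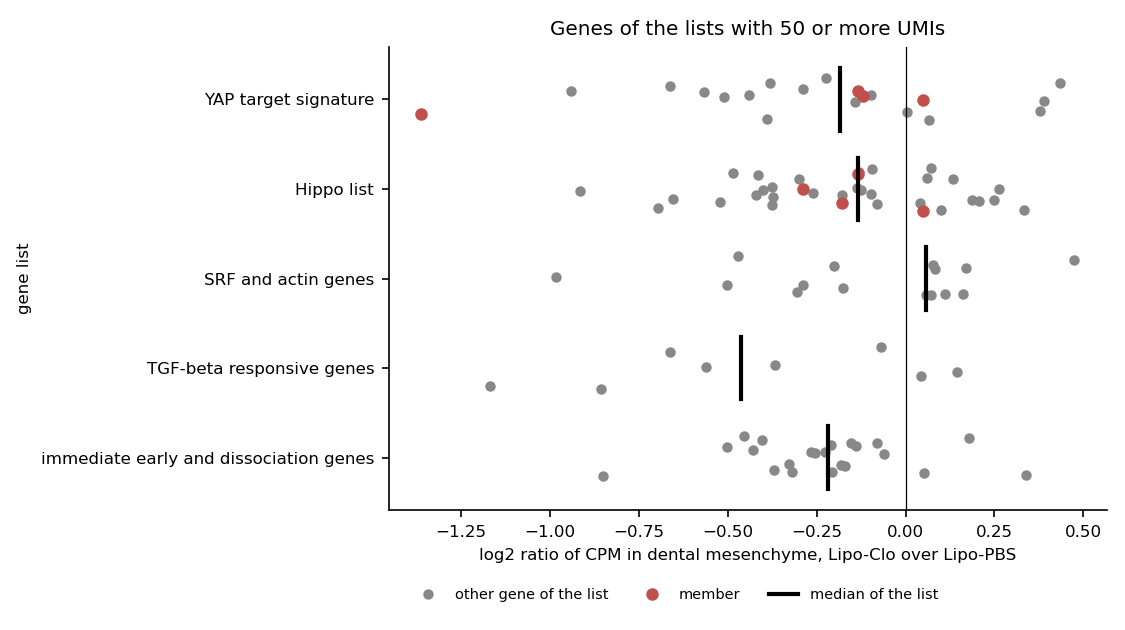
Log2 ratio of CPM in dental mesenchyme, Lipo-Clo over Lipo-PBS (horizontal axis), of each gene with 50 or more UMIs in 5 gene lists (vertical axis, points spread at random within a list). Red points are members, grey points other genes and black bars the list medians, which run from −0.46 for TGF-β responsive genes to 0.06 for SRF and actin genes.

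In single mesenchymal cells thinned to 1000 UMIs, Ccn1 was seen more often in cells with Ccn2 than in cells without. In Lipo-Clo, 33.2% (26.5 to 40.3%) of 190 cells with a Ccn2 UMI had a Ccn1 UMI, against 24.2% (22.9 to 25.6%) of 3823 cells without Ccn2. In Lipo-PBS the shares were 34.5% (29.5 to 39.6%) of 357 cells and 24.4% (23.0 to 25.9%) of 3480. Ccn2 was found in 15.6% (7.76 to 26.9%) of Lipo-Clo cells with Ccn5 and 4.56% of those without, and in 24.0% (16.7 to 32.6%) and 8.83% in Lipo-PBS. Ccn1 was found in 30.5% of Lipo-Clo cells with the immediate early gene Fos and 17.4% of those without, and in 28.3% and 19.5% in Lipo-PBS. With Tead1 there was little difference: 22.4% and 24.8% of Lipo-Clo cells with and without Tead1 had Ccn1, and 26.3% and 25.2% in Lipo-PBS. These cells come from 1 library per group and from states with different levels, so the shares are a description.

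Over 37 units, the mesenchymal states and the other classes of each library with at least 50 cells, the levels of Ccn1 followed those of Amotl2 (Pearson r 0.85) and Ccn2 (0.82) on the log2(CPM + 1) scale, and those of Ccn3 less (0.40). Yap1 and Tead1 followed each other (0.69). Among 11848 genes, those most like Ccn1 were Timp2, Postn and Col5a1 (0.91, 0.91 and 0.90), and those most like Ccn2 were Mxra7, Igf2r and Lysmd2 (0.87, 0.84 and 0.83). Ccn3 was closest to Tppp3, Tnxb and Adamts15 (0.86, 0.86 and 0.81), and Ccn5 to Gas1, Ccdc80 and Loxl1 (0.85, 0.82 and 0.82). For Amotl2 they were Ccn1, Fbln5 and Atp8b1 (0.85, 0.84 and 0.83), for Yap1 Rbfox2 and Farp1 among others (0.92 and 0.91), for Tead1 Mpdz, Asap2 and Parva (0.90, 0.89 and 0.88), and for Lats2 Tpm4, Bloc1s1 and Myl12a (0.81, 0.78 and 0.77). The units share libraries, depth and free RNA, and units of 1 class in both libraries are near copies, so no p is given.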

How the data were processed

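UMI counts per gene and cell were deposited by the authors, not normalized, for 2 single-cell libraries, 1 Lipo-Clo and 1 Lipo-PBS. Per the file headers they come from version 8.0.0 of Cell Ranger, while the submitters' processing notes list Cell Ranger 3.1.0, Seurat 3.1.1 and the build GRCm39 (mm39). Coordinates of the files' build were not used. Promoter windows and overlapping genes come from RefSeq and GENCODE M21 on GRCm38, matched by symbol and by Ensembl identifier. Cells with under 200 genes (473 and 748) or over 20% mitochondrial UMIs (3 and 11) were left out. Scrublet in scanpy 1.11.5 called 0 and 1 doublets by its automatic threshold, so the highest scores were removed in its place, 632 and 633 cells, at 0.8% per 1000 cells. Cells of both libraries entered 1 clustering, with no correction for library (2000 variable genes, 30 components, 20 neighbours, leidenalg 0.10.2 at resolution 1), and the mesenchyme again with 20 components at resolution 0.6. A cluster was named by at least 3 markers that were 2-fold above the median cluster and in 10% of its cells, from the list with the highest mean fold. No name was given if the 10 leading genes held more markers of a different class, if a mesenchymal state had more markers of a different list, or if markers of 2 or more further lineages stood clearly above the median cluster. A named cluster can thus carry some markers of another list. The members, gene lists and markers were chosen with earlier results of these data known, and the naming rules were settled on these data.

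UMIs were summed per library and class. Ratios have exact conditional intervals, levels exact Poisson intervals and shares exact Clopper-Pearson intervals, at the 95% level. UMIs of 1 molecule are counted once, but intervals and floors cover counting error only. Genes needed 50 UMIs over both libraries, and a difference was counted from 1.5-fold. Named list genes are the 2 highest and 2 lowest ratios of each list with at least 200 UMIs, like genes are the 3 of highest correlation with each member, and Fat4, Rbms3, Ltbp2, Fos, Jun, Ccn6 and Hspa1a were named after their values were seen. The values of 2 genes that this rule names are not reported here. The code for ratios and intervals was run on simulated Poisson counts with known folds. These had no variation between cells, mice or libraries, so the run checks the arithmetic only. Alternatives used edgeR 4.0.16 and DESeq2 1.42.0 factors, other filters, resolutions, scalings and limits.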

Additional observations from a re-analysis of the deposited data

Results flagged for a closer look

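Ccn1 was higher in Lipo-Clo in some cells and lower in others, each beyond counting error. In mesenchyme its log2 ratio was 0.34 in the fibroblast-like state, and −0.32 in the osteoblast or cementoblast-like state, −0.20 in the periodontal ligament-like state, −0.79 in the pulp or papilla-like state led by Ctnnd2, −0.49 in the state led by Abi3bp and −0.50 in dividing cells. In epithelium it was 0.43 in the keratin cluster led by Lgals7 and −1.02 in the cluster led by Odam. The Ctnnd2 state, at 54.2 against 93.7 CPM, and the Odam cluster, at 51.9 against 105 CPM, were near the neutrophil level of Ccn1. That level was 44.7 against 87.1 CPM, a log2 ratio of −0.96, and the part of free RNA in both was not tested. With 1 library per group the differences between states and between clusters were not tested.

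The largest cluster with markers of several lineages, which entered only an alternative of the mesenchymal comparison, held 774 Lipo-PBS and 9 Lipo-Clo cells. All but Ankrd1 of the members were seen in its Lipo-PBS cells: Ccn1 at 238 CPM, Ccn2 at 86.2, Ccn3 at 30.5, Ccn5 at 28.3, Amotl2 at 29.0, Yap1 at 34.7, Tead1 at 64.9 and Lats2 at 32.1 CPM. Its Ccn2 level lay below that of Lipo-PBS mesenchyme (144 CPM) beyond counting error, while its Ccn3 level (24.7 CPM in mesenchyme) differed within it.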

How the results depend on the processing

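No paired analysis was possible because a single library stands for each treatment. The count of members at least 1.5-fold lower in mesenchyme was 3 in the main analysis. It was 1, Ccn2, when genes had to be seen in 10% of the mesenchymal cells, which leaves 4472 genes, and the median of the YAP target signature was then −0.39, against −0.18 in the main analysis, −0.33 with doublets kept, −0.32 at resolution 2 and −0.10 at the common mixture of states. The Hippo median was −0.13, and −0.26 with that filter and −0.065 as a mean over scaled cells. At the common mixture of states the median of the immediate early genes was −0.079, against −0.22. The median of all genes at that mixture was −0.060, against −0.02 in the main analysis, with the YAP target signature at −0.10. The TGF-β responsive list and the SRF and actin list were not weighted to it. Ccn2 and Ccn3 were lower and past 1.5-fold under each of 15 alternatives, with log2 ratios from −1.46 to −0.70 and from −1.86 to −0.70, both nearest 0 at the common mixture. Ccn5 was lower in all 15 and past 1.5-fold in 13, the exceptions being the common mixture (−0.37) and the mesenchyme without the Abi3bp state (−0.54), and Ccn1 (−0.18 to −0.02), Tead1 (−0.35 to −0.20) and Lats2 (−0.19 to −0.09) were lower in 15 of 15. Yap1 was lower in 14 of 15 (0.07 with cells thinned to 1000 UMIs) and Amotl2 higher in 13 of 15. Chosen after seeing the data were the mesenchyme without its haemoglobin-led state, without the Abi3bp state, without that and the fibroblast-like state, and with the largest cluster of several lineages, which gave Ccn2 ratios of −1.45, −1.12, −0.70 and −1.24. Genes at least 1.5-fold higher and lower numbered 554 and 1004, and 334 and 930 at the common mixture, 47 and 209 with the filter on 10% of cells, 2177 and 3147 without the UMI filter, 2170 and 2686 at a lower fold limit and 133 and 287 at 2-fold. Depth limits Ankrd1 and the classes with few UMIs, where only large differences could be seen.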
